A study of Mus musculus with 12 samples.

Results

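The Kruppel-like factors are zinc finger transcription factors encoded by the Klf genes. The members described here are the 10 genes Klf2, Klf3, Klf4, Klf6, Klf7, Klf9, Klf10, Klf12, Klf13 and Klf15, out of 17 Klf symbols in the mouse annotation and 15 present in each of the count tables, which list 27866 genes for the astrocyte fraction and 30359 for the microglia fraction. The list was chosen from the family by symbol and was picked for the strong fall of Klf12 in astrocytes, so that the comparison of vectors in the astrocyte fraction is given for these genes as a description, with no p-value. All 10 members passed the filter on low counts in every comparison.

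The data were RNA sequencing libraries from hippocampi of male C57Bl6/J mice injected in CA1 on both sides at 2 months of age and studied 2 months later, at 4 months. The control animals received AAV-GFP (AAV2/9-GfaABC1D-Bglob-GFP-WPRE) and the others AAV-A2A, the same type of vector carrying the adenosine A2A receptor (A2AR), so both groups were injected with a virus whose cargo is driven by GfaABC1D, a short form of the astrocytic GFAP promoter. Cells were taken with magnetic beads against ACSA-2, an astrocyte surface antigen, or against CD11b, a microglial surface antigen, and CD11b+ cells were sorted from the flow-through of the ACSA-2 step. Each of the 4 groups had 3 libraries, and a library is called by its vector and the number in its title, such as A2A-309. The cells came from the dissected hippocampus and not from CA1 alone, and the numbers are the only sign that replicates are separate animals, so the p-values measure the spread between these libraries.

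Kruppel-like factors share 3 zinc fingers at the C-terminus that bind GC-rich and CACCC sequences, and differ in the N-terminus, which recruits other proteins. Klf3 and Klf12 carry a motif that binds the corepressor CtBP. Klf2, Klf4, Klf6 and Klf7 mostly act as activators, Klf9, Klf10 and Klf13 recruit the Sin3A corepressor, and Klf15 is known as a gene induced by glucocorticoids. In the brain Klf2 and Klf4 are known from endothelial cells and microglia, Klf9 as a target of thyroid hormone and glucocorticoids, and Klf15 as an astrocyte-enriched gene. Several of them, Klf2, Klf4, Klf6 and Klf10 among them, are early response genes.

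Total counts on genes were between 33937067 and 49217553 in the ACSA-2 libraries and between 36098295 and 53206974 in the CD11b libraries. Adora2a, the gene of A2AR, was at 23.0 to 25.1 CPM (counts of a gene scaled to the library total, as CPM throughout) in the AAV-GFP ACSA-2 libraries and at 656 to 945 CPM in the AAV-A2A ones. In the control animals 6 of 6 astrocyte markers were higher in the ACSA-2 fraction and 6 of 6 microglia markers were higher in the CD11b fraction. Of the CD11b libraries, GFP-2328, GFP-2329 and A2A-2347 stood apart: the summed choroid plexus markers (Ttr, Folr1, Kl, Clic6 and Kcnj13) were at 76629, 62152 and 31799 CPM there and at 9.25 to 91.5 CPM in the other 3 libraries, while the summed microglia markers were at 7355, 14630 and 21651 CPM there and at 45785 to 55533 CPM in the others. Results of the CD11b fraction are therefore also given without these 3 libraries, a choice made after the data had been seen.

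The sequence before the start is shown for 3 members described below. Klf12 fell in the ACSA-2 fraction. Klf13 was the member whose vector groups did not overlap in either fraction, in opposite directions and without passing the call. Klf15 was the member with the highest level per length in astrocytes. Each run is the 250 bases before the RefSeq start of the gene in GRCm38.p6, read 5′ to 3′ on the strand of the gene, and none of them overlaps an annotated exon. Capitals mark, on either strand, the GC box GGGCGG, the CACCC box and TGACG, the core of the cAMP response element. The Klf12 region lies at chr14:100149797-100150046 on the minus strand, inside an intron of the longest annotated transcript. The Klf13 region lies at chr7:63938916-63939165 on the minus strand, and the Klf15 region at chr6:90462326-90462575 on the plus strand.
Klf12: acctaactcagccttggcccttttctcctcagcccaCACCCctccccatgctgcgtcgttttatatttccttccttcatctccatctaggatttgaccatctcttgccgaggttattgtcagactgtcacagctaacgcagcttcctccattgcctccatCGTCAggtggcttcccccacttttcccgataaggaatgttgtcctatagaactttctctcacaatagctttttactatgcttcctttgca
Klf13: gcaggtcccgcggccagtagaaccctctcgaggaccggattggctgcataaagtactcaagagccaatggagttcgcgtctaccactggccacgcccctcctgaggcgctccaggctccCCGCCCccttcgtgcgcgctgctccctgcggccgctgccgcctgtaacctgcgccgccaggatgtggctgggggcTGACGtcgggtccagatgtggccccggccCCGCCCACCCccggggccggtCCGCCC
Klf15: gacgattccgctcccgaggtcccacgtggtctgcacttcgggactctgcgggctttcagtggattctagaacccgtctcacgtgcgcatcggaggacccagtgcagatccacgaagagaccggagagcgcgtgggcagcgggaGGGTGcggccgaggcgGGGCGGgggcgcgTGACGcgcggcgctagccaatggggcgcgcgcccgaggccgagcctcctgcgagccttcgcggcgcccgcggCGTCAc

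Of the members, 9 of 10 had an entry in the promoter table, and Klf10 had none. The Klf12 region had a GC content of 48.0% and 6 CpG dinucleotides, where the other 8 members had 59.2 to 78.4% and 13 to 37 CpG, and the median of all 32851 promoters of this length was 52.4%. The windows are unlike: those of Klf3, Klf7, Klf2 and Klf6 overlap annotated exons over 250, 102, 29 and 7 bases. That of Klf12 lies inside the gene, so the start of its longest transcript was not examined. The GC box was found before 7 of the 9 members, and before 32.7% of all promoters. It was found 3 times before Klf13 and once before Klf15, with no match before Klf12 or Klf9. The CACCC box was found before 7 of 9 members and 52% of all promoters, with 1 match each before Klf12, Klf13 and Klf15, and the match before Klf13 overlaps a GC box by 1 base. TGACG was found before 6 of 9 members and 17.8% of all promoters, with 1 match before Klf12, 1 before Klf13 and 2 before Klf15. The whole element TGACGTCA was found before 0 of 9 members and 1.55% of all promoters, and CCAAT before 4 of 9 members (33.8% of all promoters). TATAAA was found before 1 of 9 members (12.4% of all promoters), Klf12, where it lies on the opposite strand and reads TTTATA in the run shown. All motifs were counted on either strand. These matches are descriptions of the letters in the window.

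Klf12, the repressor the list was picked for, was strongly expressed in control astrocytes and lower in astrocytes with A2AR. The gene spans chr14:99870632-100284679 (GRCm38), the longest span of the 17 Klf genes. Its level was 320, 335 and 363 CPM in the AAV-GFP libraries GFP-303, GFP-306 and, highest, GFP-307. It was 73.6, 72.5 and 88.4 CPM in A2A-309, A2A-310 and A2A-313. The groups did not overlap, and the highest AAV-A2A library was far under the lowest AAV-GFP library. These values rest on 11286 to 13863 reads in each control library and 2656 to 3992 in each AAV-A2A library. The mean fell from 339 ± 22.1 CPM (SD, n = 3) to 78.2 ± 8.87 CPM (SD, n = 3), a log2 fold change of -2.12 with a standard error (SE) of 0.170. Of the 16451 genes tested, 1.86% had a lower log2 fold change, a place from which nothing is read because Klf12 was picked for this fall. In the controls 97.5% had a lower level, and 82 of the 524 genes called lower had a control level at least that of Klf12. In a bulk fraction such as this, fewer cells that express a gene and less RNA of the gene per cell cannot be told apart.

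Some markers of other cells also differed between the vectors in the ACSA-2 fraction. The summed markers of oligodendrocyte precursors (Pdgfra, Cspg4 and Gpr17) were at 190 to 296 CPM in the AAV-GFP libraries and 50.4 to 75.4 CPM in the AAV-A2A libraries. Most of that sum is Cspg4, also known from pericytes, at 255 CPM against 56.5 CPM, whereas Pdgfra was at 5.80 against 4.42 CPM and Gpr17 at 0 against 0.279 CPM. The summed endothelial markers were at 374 to 459 CPM against 212 to 412 CPM, and 1 of 6 was called lower, Flt1, a receptor for VEGF, at 181 ± 20.7 against 57.2 ± 17.7 CPM (SD, n = 3 each; log2 fold change -1.66) with no overlap. The log2 fold change was positive for 2 of 6, Cldn5 (0.054) and Slco1a4 (0.35), and negative but not called for Cdh5, Tek and Pecam1. The summed markers of monocytes and neutrophils, none of which passed the filter on low counts, were at 2.40 to 3.67 CPM against 0.166 to 0.554 CPM, and the summed mural markers at 4687 to 4822 CPM against 3587 to 5040 CPM. The part of these cells in the fall of Klf12 was not tested.

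Klf3, the other member that binds CtBP, was at 106, 106 and 98.3 CPM in the controls and at 90.4, 56.6 and 97.2 CPM with AAV-A2A. The groups did not overlap, but GFP-307 and A2A-313 were close, and A2A-310 was lowest. Its log2 fold change of -0.35 (SE 0.221) did not pass the call, and it was -0.14 without A2A-310. Klf3 shares 404 exon bases with Gm20033 on the opposite strand, and whether the counting used strand was not stated in the sources used here.

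Among the activators, no member passed the call in the ACSA-2 fraction. Klf6, an early response gene, was at 75.3, 75.0 and 69.1 CPM in the controls and at 102, 82.8 and 99.2 CPM with AAV-A2A. The groups did not overlap, with the AAV-A2A libraries higher, and the log2 fold change was 0.37 (SE 0.172). Klf7, which has a role in neuron growth, was at 55.6, 52.2 and 66.3 CPM in the controls and at 65.2, 66.8 and 66.4 CPM with AAV-A2A, overlapping at GFP-307, with a log2 fold change of 0.19 (SE 0.182). Klf7 shares 3196 exon bases with Gm26649 on the opposite strand, so its level is uncertain. Klf2 was at 39.0, 46.3 and 50.8 CPM in the controls and 42.9, 36.9 and 23.9 CPM with AAV-A2A, with a log2 fold change of -0.39 (SE 0.257) that was -0.19 without A2A-313, the lowest library. Klf4, best known as a pluripotency factor, was at 2.59 to 6.67 CPM in all 6 libraries, with a log2 fold change of -0.15 (SE 0.508).

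The members that recruit Sin3A and Klf15 differed in how steady they were. Klf13 was at 21.5, 30.1 and 28.6 CPM in the controls and at 40.6, 40.6 and 35.3 CPM with AAV-A2A. The groups did not overlap and the AAV-A2A libraries were higher, with a log2 fold change of 0.54 (SE 0.223). Klf9 was at 127, 115 and 109 CPM in the controls and at 144, 90.9 and 125 CPM with AAV-A2A, so that A2A-309 was the highest library and A2A-310 the lowest, and the log2 fold change was 0.036 (SE 0.201). Klf10, a gene induced by TGF-beta, was low, at 6.20 to 13.4 CPM in the controls and 6.49 to 18.6 CPM with AAV-A2A, with a log2 fold change of 0.18 (SE 0.454). Klf15 was at 149, 185 and 152 CPM in the controls and at 141, 125 and 235 CPM with AAV-A2A, a range that encloses the controls, with a log2 fold change of 0.043 (SE 0.245) that moved to -0.29 without A2A-313.

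**Figure D1:**
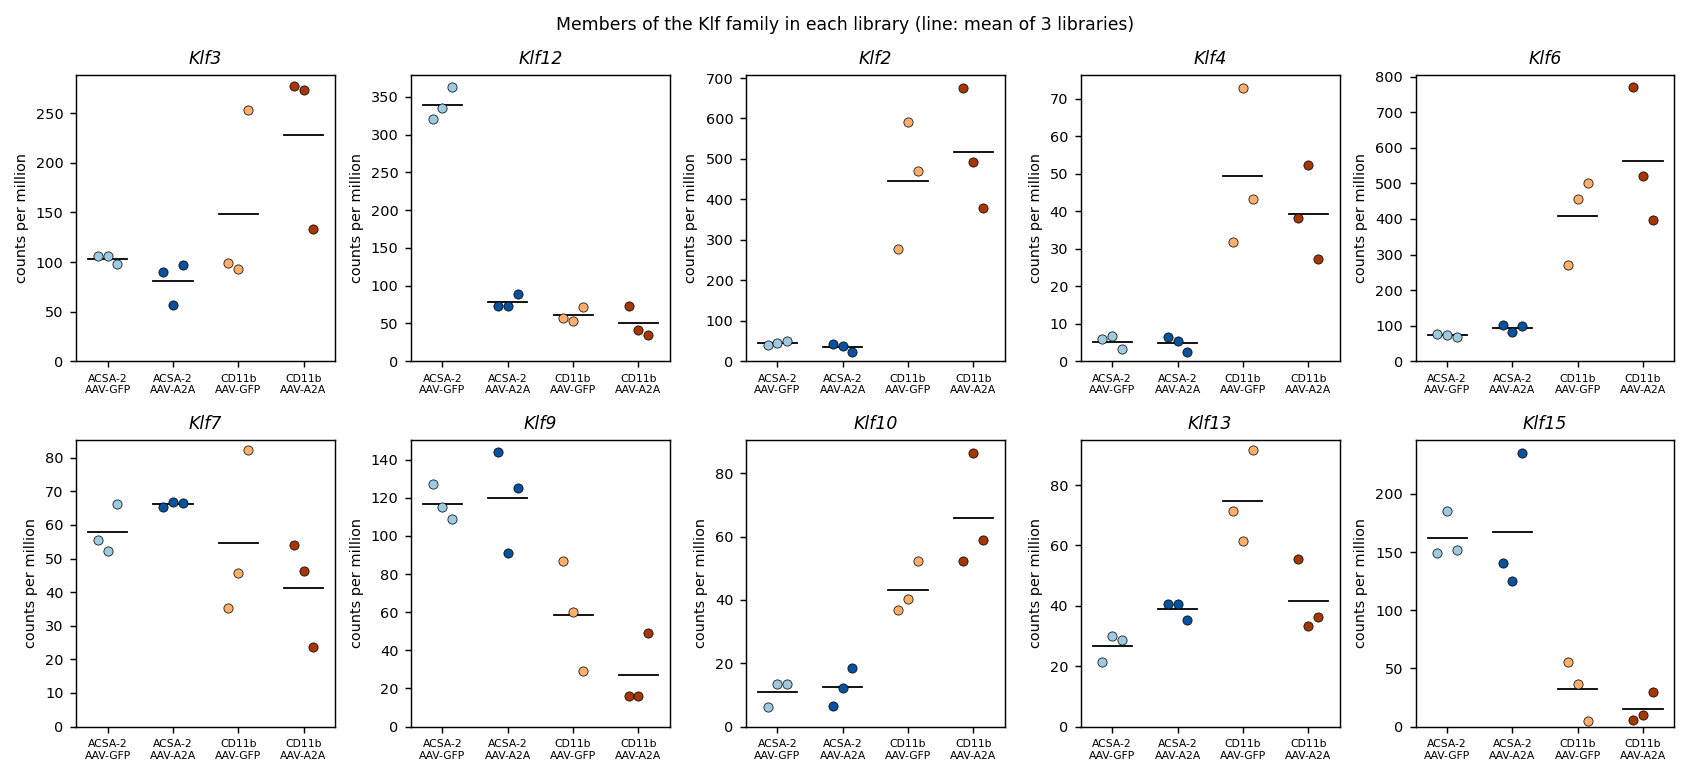
Each panel plots the CPM of 1 member (vertical axis, linear and from 0) in the 12 libraries, in 4 groups of 3, with a line at the group mean. CPM was scaled separately for the ACSA-2 and the CD11b libraries. Klf12 stands at 320 to 363 CPM in the AAV-GFP ACSA-2 libraries and at 35.2 to 88.4 CPM in the other 9, and the vector groups of Klf13 do not overlap in either fraction, with AAV-A2A above AAV-GFP in ACSA-2 and below it in CD11b, neither past the call.

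By edgeR's quasi-likelihood test, called here where the adjusted p was under 0.05 and the log2 fold change over 0.32 in size, 1 of 10 members was called lower in the ACSA-2 fraction and 0 were called higher, where 3.19% of all tested genes were called lower and 0.176% higher. Groups did not overlap for 2 members that were lower (Klf12 and Klf3) and 2 that were higher (Klf6 and Klf13), where 10.9% and 8.61% of all genes did so. Since Klf12 was picked for this contrast, nothing is read from these counts. The median log2 fold change of the 10 members was 0.039, beside 0.022 over all genes tested.

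In the CD11b fraction, which the list was not picked from, no member passed the call. It was passed by 0 of 10 members and by 0% of the 16949 genes tested, higher or lower, with edgeR's quasi-likelihood test. An unadjusted p under 0.05 was found for 2704 genes and 1 member, Klf13. DESeq2 called 502 genes and limma-voom 0, and neither called a member. The groups did not overlap for 1 member that was lower and 0 that were higher, where 10.9% and 12.6% of all genes did so. The median log2 fold change of the members was -0.30, beside -0.050 over all genes tested. Adora2a was at 3.96 to 8.07 CPM in the controls and 16.3 to 43.3 CPM in the AAV-A2A libraries of this fraction.

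Klf12 overlapped between the vectors in the CD11b fraction, where 81.7% of the genes tested had a lower level in the controls. It was at 57.0, 52.8 and 72.2 CPM in GFP-2328, GFP-2329 and GFP-2331, and at 73.6, 42.0 and 35.2 CPM in A2A-2343, A2A-2344 and A2A-2347. Both the highest and the lowest library were AAV-A2A ones. The log2 fold change was -0.27 (SE 0.351), with an adjusted p of 0.726 in edgeR, and lay between -0.64 and -0.055 over the alternatives.

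Klf13 was the 1 member whose groups did not overlap in the CD11b fraction, and the direction was the opposite of that in the ACSA-2 fraction. It was at 71.3, 61.5 and 91.5 CPM in the controls and at 55.5, 33.3 and 36.4 CPM with AAV-A2A, and the groups did not overlap. The log2 fold change was -0.84 (SE 0.315), with an adjusted p of 0.292 in edgeR that did not pass the threshold, and it was -0.67 to -1.10 over the alternatives. In the 3 libraries poor in choroid plexus markers Klf13 was at 91.5 CPM in GFP-2331 and at 55.5 and 33.3 CPM in A2A-2343 and A2A-2344, with a log2 fold change of -1.04 and an adjusted p of 1 in an edgeR fit that rests on 1 control library, assumed to vary like the AAV-A2A ones. Summed markers of some other cells were also higher in every CD11b control than in any AAV-A2A library. The sums of the remaining cell types overlapped, among them border macrophages at 39.8 to 165 against 147 to 237 CPM and oligodendrocyte precursors at 40.3 to 65.1 against 55.8 to 127 CPM. The summed erythrocyte markers were at 988 to 6137 CPM against 61.6 to 242 CPM, the ependymal ones at 136 to 267 against 30 to 58.1 CPM, the neuronal ones at 10.7 to 102 against 3.61 to 5.29 CPM, and the endothelial ones at 478 to 1313 against 311 to 448 CPM. Of the individual erythrocyte, ependymal, neuronal and endothelial markers, 0 of 5, 0 of 4, 0 of 6 and 0 of 6 passed the call. Among the endothelial ones Flt1 (-1.85), Cldn5 (-1.77) and Slco1a4 (-0.38) had the lowest log2 fold changes, beside Tek (-0.085), Cdh5 (-0.018) and Pecam1 (0.055). The part of all these cells in the Klf13 values was not tested.

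Klf9 and Klf15 were higher in the 3 CD11b libraries rich in choroid plexus markers than in the other 3. Klf9 was at 86.7, 59.9 and 49.3 CPM in GFP-2328, GFP-2329 and A2A-2347, and at 29.2, 16.2 and 15.8 CPM in GFP-2331, A2A-2343 and A2A-2344. Klf15 was at 55.6, 36.6 and 29.8 CPM in the first 3 of these and at 4.80, 5.67 and 9.59 CPM in the others. For Klf9 the AAV-GFP libraries were above the AAV-A2A ones among the libraries rich in these markers and among the others, and for Klf15 among the rich ones but not among the others. The log2 fold change between vectors was -1.11 (SE 0.602, adjusted p 0.400 in edgeR) for Klf9 and -1.11 (SE 0.945, adjusted p 0.590) for Klf15. Without the 3 libraries the value was -0.87 for Klf9 and turned to 0.67 for Klf15, with an adjusted p of 1 for both in edgeR.

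Klf3 had the reverse order. It was at 99.1, 92.5 and 133 CPM in GFP-2328, GFP-2329 and A2A-2347, and at 253, 278 and 273 CPM in GFP-2331, A2A-2343 and A2A-2344. The log2 fold change between vectors was 0.62 (SE 0.526, adjusted p 0.586 in edgeR) and 0.13 without the 3 libraries. The part of choroid plexus cells in the levels of Klf9, Klf15 and Klf3 was not tested.

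**Figure D2:**
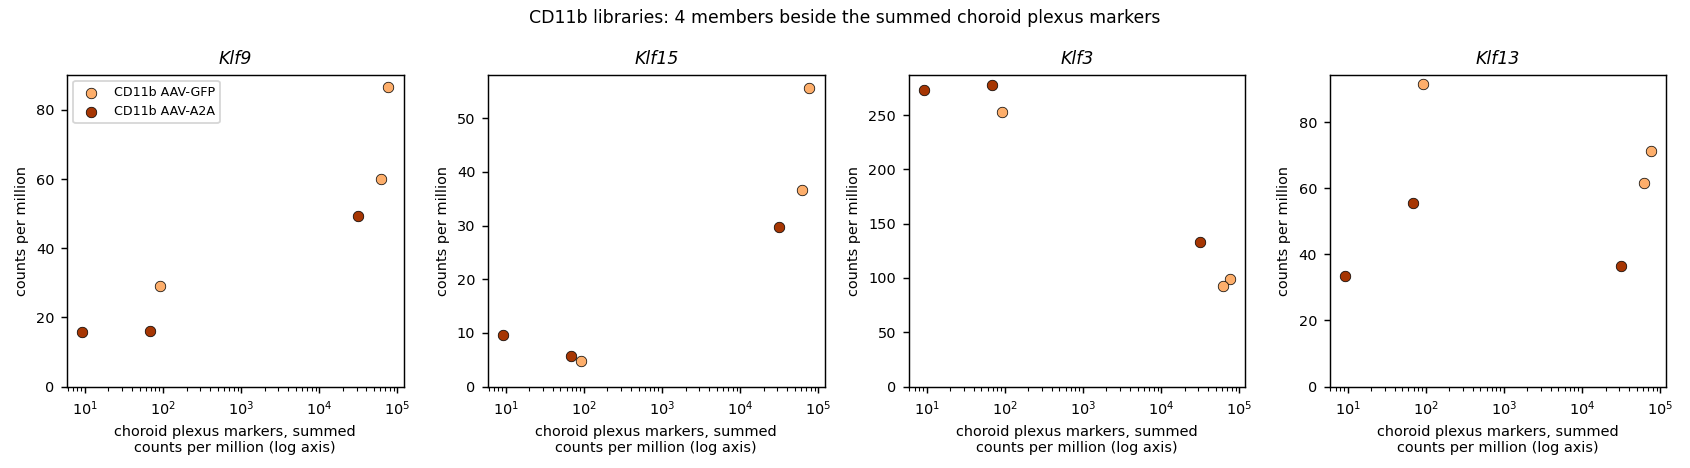
The CPM of Klf9, Klf15, Klf3 and Klf13 (vertical axis, linear and from 0) is plotted against the summed CPM of 5 choroid plexus markers (horizontal axis, log scale) in the 6 CD11b libraries, coloured by vector. Klf9 and Klf15 are high and Klf3 is low in the 3 libraries at 31799 CPM and above. The Klf13 controls are at 61.5 CPM and above and the AAV-A2A libraries at 55.5 CPM and below, without passing the call. Of all genes tested in this fraction, 10.9% were lower without overlap.

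The other members of the CD11b fraction, of which Klf2 and Klf6 were the most abundant, varied among libraries of 1 group. Klf2 was at 277, 592 and 471 CPM in the controls and at 676, 493 and 379 CPM with AAV-A2A, with a log2 fold change of 0.21 (SE 0.442, adjusted p 0.839 in edgeR). Klf6 was at 270, 456 and 501 CPM in the controls and at 771, 522 and 397 CPM with AAV-A2A, with a log2 fold change of 0.46 (SE 0.438, adjusted p 0.626). For both, GFP-2328 was the lowest and A2A-2343 the highest library. Klf10 was at 36.8, 40.2 and 52.4 CPM in the controls and at 52.3, 86.6 and 59.1 CPM with AAV-A2A. Its groups met at GFP-2331 and A2A-2343, and the log2 fold change was 0.61 (SE 0.305, adjusted p 0.367 in edgeR). Klf4 (27.3 to 73.0 CPM) and Klf7 (23.6 to 82.4 CPM) had log2 fold changes of -0.33 and -0.40, with adjusted p-values of 0.713 and 0.680 in edgeR.

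**Figure D3:**
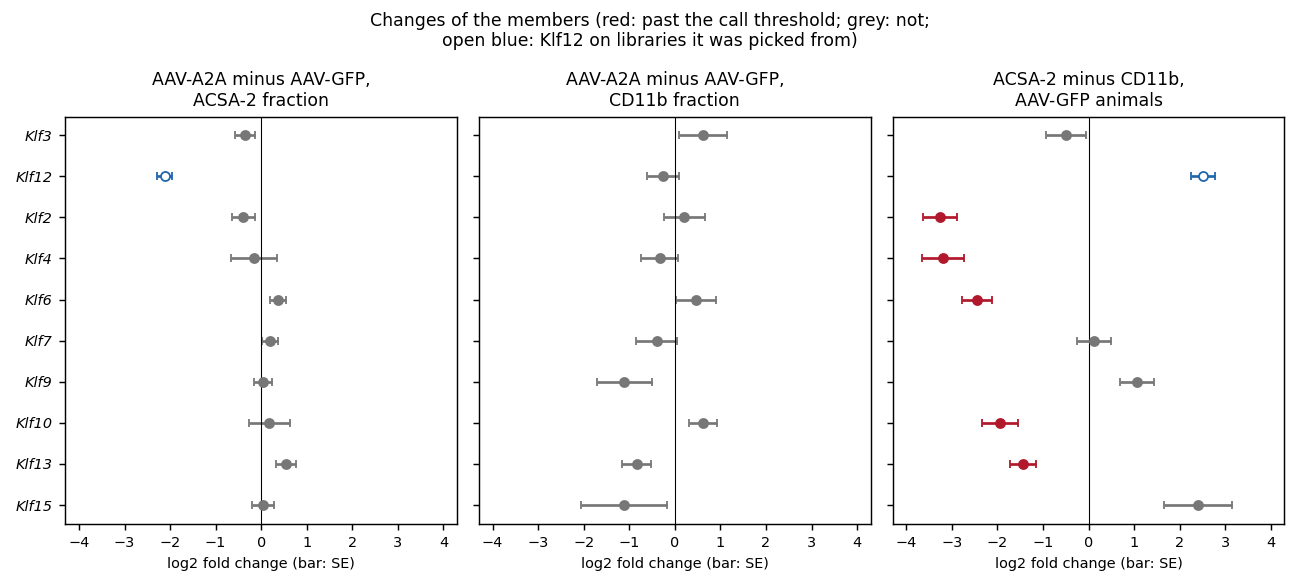
The log2 fold change of each member (horizontal axis, bars are the SE of the edgeR fit) is shown for AAV-A2A against AAV-GFP in the ACSA-2 fraction and in the CD11b fraction, and for ACSA-2 against CD11b in the AAV-GFP animals. Red points passed the call, no member in the middle panel and 5 on the right, from Klf2 at -3.26 to Klf13 at -1.44. Open blue points show Klf12, at -2.12 on the left and 2.52 on the right, as a description, since it was picked from those ACSA-2 libraries.

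The 2 fractions were compared in the AAV-GFP animals, with all 6 libraries scaled together. From here on, astrocytes and microglia stand for the ACSA-2 and CD11b fractions. Of the CD11b controls, GFP-2328 and GFP-2329 had choroid plexus markers at 76629 and 62152 CPM, above their microglia markers at 7355 and 14630 CPM. Here 5 of 10 members were lower in astrocytes, Klf2, Klf4, Klf6, Klf10 and Klf13, where 13% of all 16980 genes tested were called lower. Klf3, Klf7, Klf9 and Klf15 did not pass. Of all genes 12.7% were called higher, and among the members the call was passed by Klf12 alone, from which nothing is read because it was picked from the same ACSA-2 libraries. The groups did not overlap for 5 members that were lower and 3 that were higher, Klf12 included, where 24.9% and 25.4% of all genes did so. The median log2 fold change of the members was -0.97, beside -0.086 over all genes, again with Klf12 included. The labels of the 2 fractions carry other numbers, and the counts came from separate tables. The numbers of the ACSA-2 labels match the library names and those of the CD11b labels do not. Whether the fractions share animals is therefore not known from the labels. Fraction and preparation cannot be told apart, and the ACSA-2 controls are the ones that also enter the comparison of vectors.

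Klf2 was at 47.0 ± 6.15 CPM (SD, n = 3) in astrocytes and 451 ± 164 CPM (SD, n = 3) in microglia, with a log2 fold change of -3.26 (SE 0.368, adjusted p 0.00235 in edgeR). Klf4 was at 5.45 ± 1.90 against 49.6 ± 21.2 CPM (SD, n = 3 each), with a log2 fold change of -3.19 (SE 0.465, adjusted p 0.00552 in edgeR). Klf6 was at 75.7 ± 3.52 against 414 ± 136 CPM (SD, n = 3 each), with a log2 fold change of -2.45 (SE 0.325, adjusted p 0.00401 in edgeR). Of the 4 activators, these 3 were thus lower in astrocytes, while Klf7 was at 60.1 ± 7.80 and 55.4 ± 27.5 CPM, with a log2 fold change of 0.12 (adjusted p 0.838 in edgeR). Klf10 was at 11.4 ± 4.26 against 43.5 ± 10.2 CPM, with a log2 fold change of -1.94 (SE 0.390, adjusted p 0.0147 in edgeR). Klf2, Klf4, Klf6 and Klf10 passed under all 14 alternatives.

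Early response genes as a group were higher in the CD11b fraction, along with these members. Of 19 such genes 18 were called lower in astrocytes and 0 higher, with a median log2 fold change of -4.29. Their summed level was 1953 to 2085 CPM in the ACSA-2 controls and 17698 to 31450 CPM in the CD11b controls. Socs3, an inhibitor of cytokine signalling, had a log2 fold change of -5.93, Fosb, a partner of Jun, -5.60, Atf3, a stress response factor, -5.59, and Zfp36, which destabilises mRNA, -5.29. The summed endothelial markers were at 389 to 477 CPM in the ACSA-2 controls and 502 to 1306 CPM in the CD11b controls (2 of 6 called lower in astrocytes), those of monocytes and neutrophils at 2.47 to 3.81 against 64.3 to 325 CPM (2 of 5 tested), and those of border macrophages at 36.7 to 67.3 against 39.5 to 173 CPM (0 of 5). The part of these cells or of a common early response in the gap of Klf2, Klf4, Klf6 and Klf10 was not tested.

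Klf13 was at 27.7 ± 4.65 CPM in astrocytes and 75.4 ± 18.3 CPM in microglia of the controls, with a log2 fold change of -1.44 (SE 0.280, adjusted p 0.0126 in edgeR). It narrowly missed the threshold without GFP-303 (adjusted p 0.0528 in edgeR). In the AAV-A2A animals of both fractions, an alternative added after the data had been seen, the same difference was -0.070, with an adjusted p of 0.874 in edgeR. Klf12 was at 351 ± 23.1 CPM against 61.1 ± 12.7 CPM (SD, n = 3 each) in the controls, a log2 fold change of 2.52 (SE 0.261), and in the AAV-A2A animals the log2 fold change was 0.66. The ACSA-2 libraries behind the Klf12 values are those the gene was picked from, so these are given without a p-value.

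Klf15 and Klf9 were higher in every astrocyte library than in any microglia library, but did not pass the call. Klf15 was at 168 ± 19.7 against 31.8 ± 24.7 CPM, with a log2 fold change of 2.40 (SE 0.752, adjusted p 0.0561 in edgeR), and Klf9 at 121 ± 9.75 against 58.1 ± 26.7 CPM, with a log2 fold change of 1.06 (SE 0.375, adjusted p 0.0788). DESeq2 called both (adjusted p 0.00659 and 0.0495). Without GFP-2328 and GFP-2329, which leaves 1 CD11b control, the log2 fold changes were 5.03 (adjusted p 0.000454 in edgeR) and 1.95 (adjusted p 0.00415), and without GFP-2331 they were 1.89 (adjusted p 0.00160) and 0.75 (adjusted p 0.0362). Klf3 was at 107 ± 4.59 against 151 ± 98.8 CPM, with a log2 fold change of -0.49 (SE 0.441, adjusted p 0.441 in edgeR), which was -1.33 (adjusted p 0.00540) without GFP-2328 and GFP-2329 and 0.19 without GFP-2331. In the AAV-A2A animals Klf15 (3.58, adjusted p 0.00241 in edgeR) and Klf9 (2.24, adjusted p 0.00564) were called higher in astrocytes and Klf3 (-1.47, adjusted p 0.0221) lower. Some markers of other cells were also higher in the ACSA-2 controls, whereas the endothelial sum given above was lower. The summed mural markers were at 4873 to 4965 against 703 to 1923 CPM (4 of 5 called higher). The ependymal ones were at 998 to 1309 against 132 to 266 CPM (3 of 4 called higher). The part of these cells in the levels of Klf15, Klf9 and Klf12 was not tested.

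Levels were set between genes per kilobase of exon (RPKM), with the 12 libraries scaled together. In control astrocytes Klf15 was the highest member at 59.0 ± 6.87 RPKM (SD, n = 3), followed by Klf12 at 49.4 ± 3.25, Klf2 at 24.9 ± 3.27, Klf9 at 24.7 ± 1.99, Klf6 at 16.9 ± 0.784, Klf3 at 9.37 ± 0.399, Klf7 at 7.26 ± 0.944, Klf13 at 3.61 ± 0.604, Klf10 at 2.67 ± 0.999 and Klf4 at 1.75 ± 0.611 RPKM. In that order the ranges of Klf2 and Klf9, of Klf13 and Klf10 and of Klf10 and Klf4 overlapped, and those of the other neighbours did not. In AAV-A2A astrocytes Klf12 was at 11.1 ± 1.11 RPKM, rank 5 in place of rank 2, between Klf2 at 18.7 ± 5.49 and Klf7 at 8.10 ± 0.0989 RPKM, while Klf15 was still the highest at 59.4 ± 20.1 RPKM. With the length of the longest transcript in place of all exons Klf12 was at rank 6 there, since Klf3 went from 7.21 to 15.5 RPKM.

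In the CD11b controls, of which GFP-2328 and GFP-2329 were rich in choroid plexus markers, Klf2 was the highest member at 239 ± 87.1 RPKM (SD, n = 3). Klf6 was next at 92.4 ± 30.4 RPKM, and neither range overlapped the next one. The other 8 members were between 6.69 RPKM (Klf7) and 16 RPKM (Klf4), each with a range that overlapped its neighbour's. Klf12 was at rank 9 there, at 8.59 ± 1.78 RPKM. In the AAV-A2A libraries of the CD11b fraction, of which A2A-2347 was rich in these markers, Klf2 was again highest at 284 ± 96.9 RPKM. Klf6 was next at 130 ± 50.5 RPKM, and the ranges of the other 8, from Klf3 at 20.7 to Klf15 at 5.18 RPKM, overlapped their neighbours'.

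**Figure D4:**
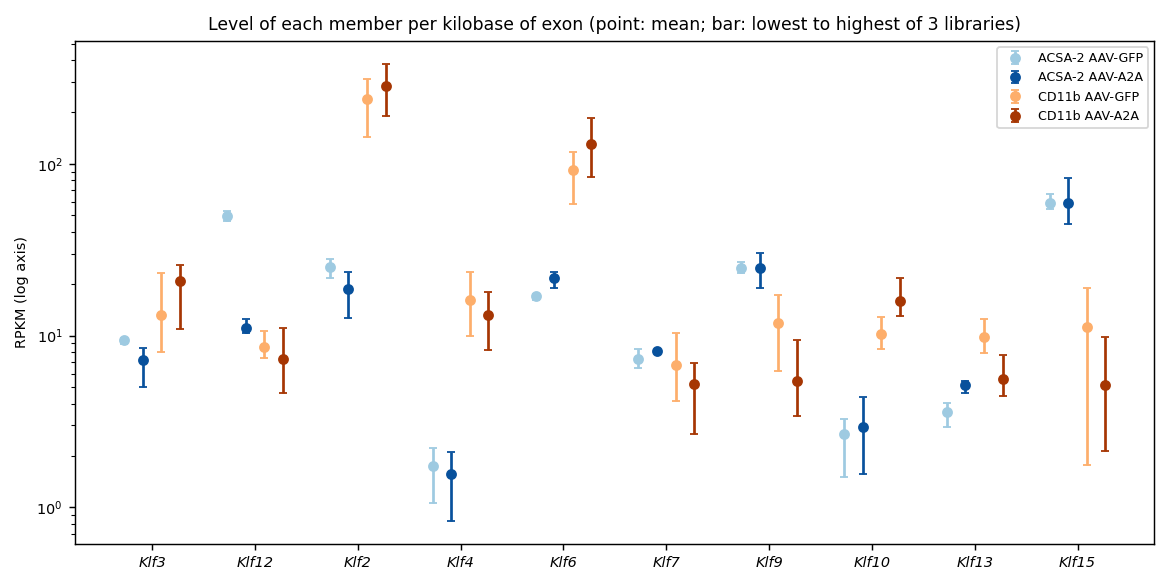
The RPKM of each member (vertical axis, log scale) is shown in the 4 groups, with a point at the mean and a bar from the lowest to the highest of 3 libraries. Klf2 and Klf6 stand highest in both CD11b groups and Klf15 in both ACSA-2 groups, and Klf12 goes from 49.4 RPKM in control astrocytes to 11.1 RPKM with AAV-A2A, near its 8.59 and 7.32 RPKM in the CD11b groups.

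The genes whose pattern over the 12 libraries was most like that of Klf12 were sought among 9582 genes with a mean of at least 5 CPM in each fraction, by Pearson's r of log2 CPM after the mean of each fraction was taken off. They were Surf4 (r = 0.98), a cargo receptor of the endoplasmic reticulum, Ncoa4 (0.98), a receptor for the breakdown of ferritin, Rictor (0.97), a subunit of the mTORC2 kinase complex, Atxn2l (0.97), a relative of ataxin-2, and Aaed1 (0.96). Their log2 fold changes were -1.27, -1.98, -1.72, -1.76 and -1.88 in the ACSA-2 fraction, and -0.044, -0.14, -0.23, -0.31 and -0.50 in the CD11b fraction. Since the fall in the ACSA-2 libraries fixes most of this pattern, r describes these libraries and is given without a p-value. Among the members, the most like Klf12 were Klf2 (r = 0.47, rank 961) and Klf3 (r = 0.40, rank 1283), and Klf15 was the least (r = -0.18).

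The proteins that work with Kruppel-like factors were read from lists, chosen like the members with earlier results known. Of the corepressors (CtBP, CoREST, Sin3 and histone deacetylases), 1 of 9 was called lower in the ACSA-2 fraction and 0 higher, with a median log2 fold change of 0.0032. This gene was Rcor1, the CoREST scaffold that joins CtBP complexes, at 68.7 ± 19.4 CPM (SD, n = 3) in the controls and 15.8 ± 11.3 CPM with AAV-A2A (log2 fold change -2.13), and its call was lost in 6 of 12 alternatives, with values from -2.89 to -1.83. They were the fit of all 12 libraries and those without GFP-303, GFP-306, GFP-307, A2A-310 or A2A-313. Ctbp1 and Ctbp2 themselves had log2 fold changes of 0.0032 and -0.60, and did not pass. Of the coactivators 0 of 4 were called by edgeR, with a median of -0.49, and Crebbp, a histone acetyltransferase, had a log2 fold change of -0.67 and was called lower by DESeq2. None of the 9 corepressors and 4 coactivators was called by edgeR in the CD11b fraction, where Sin3b (-0.14, adjusted p 0.860 in edgeR) and Ep300 (1.41, adjusted p 0.280) were the most abundant, or between the fractions, where Sin3b (-0.11, adjusted p 0.732) and Crebbp (-0.13, adjusted p 0.729) were. DESeq2 called Ep300 in the CD11b fraction (adjusted p 0.0331), and edgeR called Crebbp lower in astrocytes in the AAV-A2A animals (-1.21, adjusted p 0.00931).

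The kinase ERK5 and the MEF2 factors act upstream of Klf2 and Klf4. Of this list of 5, Mef2d was called lower in the ACSA-2 fraction, from 76.4 ± 7.39 to 21.7 ± 5.85 CPM (SD, n = 3 each), with a log2 fold change of -1.82, and 0 were called higher, with a median of -0.059. In the CD11b fraction 0 of 5 were called, with a median of 0.85, and Mef2c was the most abundant at 382 ± 114 against 263 ± 204 CPM (log2 fold change 0.54, adjusted p 0.683 in edgeR). Between the fractions Mef2a (-3.16, adjusted p 0.00920 in edgeR) and Mef2c (-2.74, adjusted p 0.0225) were lower in astrocytes, as were Klf2 and Klf4. The call of Mef2c was lost without GFP-303 (adjusted p 0.0934 in edgeR) and without GFP-306 (adjusted p 0.0895).

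Of 9 hormone receptors and genes that answer to glucocorticoids, 1 was called lower in the ACSA-2 fraction and 0 higher, with a median log2 fold change of -0.27. It was the clock gene Per1, at 32.9 ± 6.73 CPM in the controls and 9.57 ± 2.47 CPM with AAV-A2A (SD, n = 3 each; log2 fold change -1.78). In the CD11b fraction 0 of 9 were called (median 0.42), and Sgk1, a kinase induced by glucocorticoids, was the most abundant, with a log2 fold change of 0.079 (adjusted p 0.934 in edgeR). Between the fractions Nr3c2, the mineralocorticoid receptor, was higher in astrocytes (2.86, adjusted p 0.000854 in edgeR), and Sgk1 (-5.60, adjusted p 0.000579) and Fkbp5 (-4.02, adjusted p 0.0286), a chaperone of the glucocorticoid receptor, were lower. The call of Fkbp5 was lost in 5 of 14 alternatives, by limma-voom and without GFP-303, GFP-306, GFP-307 or GFP-2329, with an adjusted p of up to 0.0945. Of the 19 early response genes, Rhob (-1.76) and Egr1 (-1.61) were called lower in the ACSA-2 fraction and 0 higher, with a median of 0.31, and 0 were called in the CD11b fraction, where Fos had a log2 fold change of 0.14 (adjusted p 0.915 in edgeR) and the median was 0.13.

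Of the 7 Klf genes outside the list, 5 were in the tables and 4 were tested. All were at low levels, with group means up to 11.1 CPM in the ACSA-2 fraction, where Klf5 was at 11.1 ± 3.77 and 6.60 ± 4.72 CPM (SD, n = 3 each), and up to 20.7 CPM in the CD11b fraction, where Klf11 was at 16.1 ± 3.78 and 20.7 ± 8.26 CPM. None was called between vectors in either fraction (medians -0.41 and -0.62), and the adjusted p of Klf11 in the CD11b fraction was 0.673 in edgeR. Klf5 was called higher in astrocytes than in microglia, with a log2 fold change of 1.95 (adjusted p 0.0385 in edgeR). This call was lost in 5 of 14 alternatives, with no filter on low counts and without GFP-303, GFP-306, GFP-307 or GFP-2329, with an adjusted p of up to 0.155. Of the related Sp factors, which bind the same GC box, 6 were tested in the ACSA-2 fraction and 5 in the CD11b fraction and between fractions, and none was called by edgeR. Sp3, the most abundant, was at 28.1 ± 6.50 and 30.0 ± 5.09 CPM in the ACSA-2 groups, and at 46.4 ± 15.1 and 86.4 ± 11.7 CPM in the CD11b groups, where the adjusted p was 0.286 in edgeR. Between the fractions Sp3 was called lower in astrocytes without GFP-2328 and GFP-2329 (-1.22, adjusted p 0.0457 in edgeR) and in the AAV-A2A animals (-1.49, adjusted p 0.00487).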

How the data were processed

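The authors deposited raw counts of reads for each Ensembl gene, in 1 table per fraction. Per the labels and the submitters' processing notes, cDNA was made with SMART-Seq v4 from polyA RNA and tagged with Nextera XT, reads were prepared with bcl2fastq and cutadapt 1.10, aligned to mm10 with STAR 2.5.3 and counted with HTSeq 0.6.1p1. The strand setting of the counting is not given in the sources used here. No molecular identifiers were used, so reads are not independent molecules. The 25 unnamed, empty columns of the CD11b table were not used.

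Groups came from the sample labels. AAV-A2A was compared with AAV-GFP within each fraction, and ACSA-2 with CD11b in AAV-GFP animals over the 25442 genes in both tables. The main test was the quasi-likelihood test of edgeR 4.0.16 in R 4.3.3 (TMM, filterByExpr, robust fit, Benjamini-Hochberg adjustment over all tested genes, called at an adjusted p under 0.05 and a log2 fold change over 0.32 in size). Alternatives were DESeq2 1.42.0, which the study used, limma-voom (limma 3.58.1), RLE scaling, no filter, at least 10 counts in every library, a fit of all 12 libraries, and each library left out. CPM was scaled by TMM. Log2 CPM for the genes like Klf12 used a prior count of 2. Scripts were tested on simulated data with 200 changed genes. Gene names, positions and exon lengths were from GENCODE of GRCm38 and promoters from RefSeq of GRCm38.p6. Figures used matplotlib in Python.

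The members and lists were chosen with earlier results of these data known. All 10 members are named, and from each list the called genes, at most 4, or else the gene with the highest mean CPM. Cspg4, Pdgfra, Gpr17, Flt1, Ctbp1 and Ctbp2 were named after their values were seen.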

Additional observations from a re-analysis of the deposited data

Results flagged for a closer look

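Klf13 stood out because the AAV-A2A libraries were all above the AAV-GFP libraries in the ACSA-2 fraction (log2 fold change 0.54) and all below them in the CD11b fraction (log2 fold change -0.84). Of all genes tested, 8.61% were higher without overlap in the ACSA-2 fraction and 10.9% lower without overlap in the CD11b fraction. The share of genes that did both was not counted. The difference between the fractions was not tested, and neither value passed the call. Without the 3 CD11b libraries rich in choroid plexus markers the CD11b value was -1.04.

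Of the other named genes, Mef2d had the reverse pattern, lower in every AAV-A2A library of the ACSA-2 fraction (log2 fold change -1.82) and higher in every one of the CD11b fraction (0.85), and so did Ep300 (-0.82 and 1.41). These differences between fractions were not tested either. Among the libraries of the CD11b fraction, 10.9% of genes were lower and 12.6% higher without overlap.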

How the results depend on the processing

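In the ACSA-2 fraction the log2 fold change of Klf12 was between -2.22 and -2.07 over all 12 alternatives, given as a description, while the number of genes called moved from 553 to 1277 with DESeq2, 156 with all 12 libraries in 1 fit, and 272 to 448 when a library was left out. In the CD11b fraction the 0 calls became 502 with DESeq2 and 3 without the 3 libraries rich in choroid plexus markers, with 0 members called in each of 13 alternatives. There the sign turned for Klf2 (-0.039 to 0.46 when a library was left out), Klf4 (-0.60 to 0.063, and 0.067 without the 3 libraries), Klf7 (-0.63 to 0.029), Klf15 (-2.07 to -0.46, and 0.67 without the 3 libraries), Fos (-0.13 to 0.39), Sin3b (-0.35 to 0.033), Klf11 (-0.013 to 0.59), Sgk1 (-0.032 to 0.24, and -0.092 without the 3 libraries) and Mef2c (-0.15 without them). Between the fractions the 4377 genes called became 6834 with DESeq2, 7755 in the AAV-A2A animals, and 1927 to 5836 when a library was left out. Members called higher in astrocytes went from 1 to 2 with at least 10 counts in every library, limma-voom, all 12 libraries in 1 fit, or the AAV-A2A animals, to 3 with DESeq2 or without GFP-2328 and GFP-2329, and to 1 to 3 when a library was left out. In the AAV-A2A animals Klf12 was at 0.66 and was not called. The sign turned for Klf7 (-0.14 to 0.59 when a library was left out, -0.55 without GFP-2328 and GFP-2329), Klf3 (-0.76 to 0.19), Crebbp (-0.28 to 0.041) and Sin3b (-0.21 to 6.1e-05 when a library was left out, 0.35 in the AAV-A2A animals). Sp3 in the ACSA-2 fraction was between -0.036 and 0.28. Rcor1, Rhob, Egr1 and Per1 lost their call in the ACSA-2 fraction under 6, 3, 6 and 1 of 12 alternatives. Of the 5 genes most like Klf12, 5 stayed with a prior count of 0.5 and 2 with the ACSA-2 libraries alone. The cause of these moves was not tested. No paired analysis was made, because the groups share no numbers in their titles and the labels give no other pairing.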
